A study of Mus musculus with 9 samples.

Results

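The circadian clock genes described here are Arntl, Npas2, Clock, Per1, Per2, Per3, Cry1, Nr1d1, Nr1d2, and Dbp, which are 10 of the 43346 genes in the table and were found by their gene symbols. They were measured by bulk RNA-Seq of polyadenylated RNA in fibroblasts sorted from the lungs of 4 aged sham and 5 aged bleo mice. All 9 mice were male Col1a1-GFP transgenics on an FVB background, aged 72 weeks by the sample labels and 18 months by the treatment protocol. Aged sham mice received saline and aged bleo mice received bleomycin, an agent that injures the lung epithelium and leads to scarring. Both were given once into the trachea, and lungs were taken on day 30. The collagen I promoter drives GFP in this strain, so the sort for GFP+, CD45-, CD31-, EpCAM- cells collected whichever lung cells had that promoter active and no leukocyte, endothelial, or epithelial surface marker. The comparison asks which transcripts differ in fibroblasts of aged lungs in which fibrosis persists, and young mice were not analysed here. The time of day at which the lungs were taken is not given in the sources used here.

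The mammalian clock is a transcriptional loop that most cells run on their own, fibroblasts included. BMAL1, the product of Arntl, pairs with CLOCK or NPAS2 and binds E-boxes in the promoters of the Per and Cry genes, whose proteins then return to the nucleus and inhibit the pair. The same E-boxes drive Nr1d1 and Nr1d2, which encode the nuclear receptors REV-ERBα and REV-ERBβ that repress Arntl and Npas2 through ROR elements, and Dbp, which encodes a factor that activates D-box genes such as the Per genes. Transcripts of the E-box targets and of Arntl therefore peak at different times of day.

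The promoters that carry these elements are shown because the loop is defined by them. RefSeq (GRCm38.p6) gave 13 promoters for 9 of the 10 genes, each reaching from 250 bases before to 50 bases after a start site, and Per2 had no entry. Both strands were searched for the E-box CACGTG, the variant E-box CACGTT, the D-box (TTACGTAA or TTATGTAA, or their reverse complements), and the ROR element core TAGGTCA. A stretch of 6 bases can match only 1 of the 2 E-boxes. In the 5 promoters below, printed 5′ to 3′ on the strand of the gene, capitals mark these motifs, and AACGTG is CACGTT read on the other strand.
Arntl, chr7:113207261-113207560, plus strand: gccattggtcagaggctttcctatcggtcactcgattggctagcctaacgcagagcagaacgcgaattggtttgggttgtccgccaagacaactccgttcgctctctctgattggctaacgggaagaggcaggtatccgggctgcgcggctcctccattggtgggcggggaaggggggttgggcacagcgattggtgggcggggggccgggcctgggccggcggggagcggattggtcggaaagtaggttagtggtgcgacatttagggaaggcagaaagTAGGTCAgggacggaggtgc
Cry1, chr10:85185005-85185304, minus strand: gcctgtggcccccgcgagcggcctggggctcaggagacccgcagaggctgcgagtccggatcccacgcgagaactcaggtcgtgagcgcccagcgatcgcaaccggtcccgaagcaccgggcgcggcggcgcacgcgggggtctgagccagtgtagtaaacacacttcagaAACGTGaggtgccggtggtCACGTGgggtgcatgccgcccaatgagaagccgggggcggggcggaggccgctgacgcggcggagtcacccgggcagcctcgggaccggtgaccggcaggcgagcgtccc
Per1, chr11:69098699-69098998, plus strand: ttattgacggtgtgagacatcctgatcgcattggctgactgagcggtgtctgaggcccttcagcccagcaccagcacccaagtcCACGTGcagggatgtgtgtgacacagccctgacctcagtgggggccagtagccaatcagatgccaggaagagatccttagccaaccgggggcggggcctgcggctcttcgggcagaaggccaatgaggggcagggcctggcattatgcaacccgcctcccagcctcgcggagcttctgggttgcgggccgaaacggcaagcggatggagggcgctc
Per3, chr4:151044616-151044915, minus strand: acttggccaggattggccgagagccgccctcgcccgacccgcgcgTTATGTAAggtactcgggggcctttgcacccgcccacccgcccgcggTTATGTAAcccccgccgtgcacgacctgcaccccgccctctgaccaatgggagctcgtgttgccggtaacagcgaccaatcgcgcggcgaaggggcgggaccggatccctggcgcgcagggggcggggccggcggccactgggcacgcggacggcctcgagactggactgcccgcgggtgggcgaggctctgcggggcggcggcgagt
Nr1d1, chr11:98775328-98775627, minus strand: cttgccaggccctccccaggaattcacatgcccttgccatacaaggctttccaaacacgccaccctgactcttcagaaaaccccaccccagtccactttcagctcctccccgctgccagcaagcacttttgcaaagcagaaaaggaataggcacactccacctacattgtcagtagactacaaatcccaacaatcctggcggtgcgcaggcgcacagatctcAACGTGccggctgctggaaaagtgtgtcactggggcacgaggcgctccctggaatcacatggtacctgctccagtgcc

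The ROR element core stood 31 bases after one of the 2 annotated starts of Arntl. The E-box stood 60 bases before the start of Cry1 and 166 bases before one start of Per1. The variant E-box stood 79 bases before the start of Cry1 and 28 bases before that of Nr1d1, and Per3 carried the D-box at 205 and at 158 bases before its start. Over all 32851 mouse promoters of this length, 7.15% held the E-box, 4.68% the variant E-box, 1.06% the D-box, and 2.61% the ROR element core. The windows of Npas2, Clock, Nr1d2, and Dbp held none of these letters, which says nothing of sites outside them.

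The libraries were deep, with 49921946 to 62370512 counts in aged sham and 53833507 to 68260600 in aged bleo, and the upper limit behind a count of 0 (3 counts) was at most 0.0605 CPM, the counts scaled to library size. All 10 clock genes lay far above this, with mean counts per library from 626 for Cry1 to 9430.2 for Per1. Levels are CPM normalized by TMM, a scaling for library composition, and FDR is the Benjamini-Hochberg adjusted p over all 16877 genes tested with edgeR's quasi-likelihood test. A gene was called when its FDR was under 0.10 and its fold change over 1.5. The 8 fibroblast markers were all detected, and 4 of them rose and 2 fell. Col1a1, Col1a2, Col3a1, and Mfap4 rose, and their list summed to 25146 to 30776 CPM in the aged sham group but to 55559 to 73117 CPM in the aged bleo group, of which the 3 collagen genes made up most. Dcn fell from 8122 to 2795 CPM (FDR 0.00667) and Tcf21 from 106 to 49.6 CPM (FDR 0.0121), and of the 4 smooth muscle and pericyte markers Myh11 fell from 1377 to 617 CPM (FDR 0.0412). The 6 pan-leukocyte markers reached sums of 101 to 371 CPM among aged sham libraries and 100.01 to 566 CPM among aged bleo libraries, highest in aged sham 4 and aged bleo 4, and none of them was at 0 in all libraries. The 6 macrophage markers summed to 130 to 245 CPM in the aged sham group but to 434 to 1376 CPM in the aged bleo group, where 4 of 6 were called higher, and 5 endothelial markers summed to at most 16.9 CPM in any library. The 5 neutrophil markers summed to 150 to 923 CPM in aged sham and 69.9 to 819 CPM in aged bleo, and 0 of them were called. The 3 B cell markers were all called lower, at 2.65 to 8.56 CPM in sum in aged sham and 0.800 to 2.08 CPM in aged bleo. The part of all these transcripts in the clock gene results was not tested. Leaving out aged sham 4 and aged bleo 4 removed the highest pan-leukocyte sums. It left the macrophage sums at 130 to 185 CPM in aged sham and 434 to 795 CPM in aged bleo. The neutrophil sums were then 150 to 415 CPM in aged sham and 69.9 to 121 CPM in aged bleo. In bulk samples, fewer cells of a type and less RNA per cell cannot be told apart.

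Of the 10 clock genes, 5 fell in aged bleo fibroblasts and 0 rose, where 11.5% of all genes tested were called lower and 12.3% higher. Npas2, Per1, Per3, Nr1d1, and Nr1d2 were the genes called, and their fitted levels were 1.52-fold to 1.97-fold higher in aged sham. Per2 and Dbp had estimates of similar size whose FDR missed the threshold, and Arntl, Clock, and Cry1 had small ones. The median log2 fold change of the 10 genes was -0.71, compared with 0.01 for all genes tested. The number called depended on single libraries, from 2 without aged sham 1 to 7 without aged bleo 2. It was 4 without aged sham 2, 3 without aged sham 3, aged bleo 1, aged bleo 4, or aged bleo 5, and 4 when the leukocyte-rich aged sham 4 and aged bleo 4 were both left out.

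**Figure D1:**
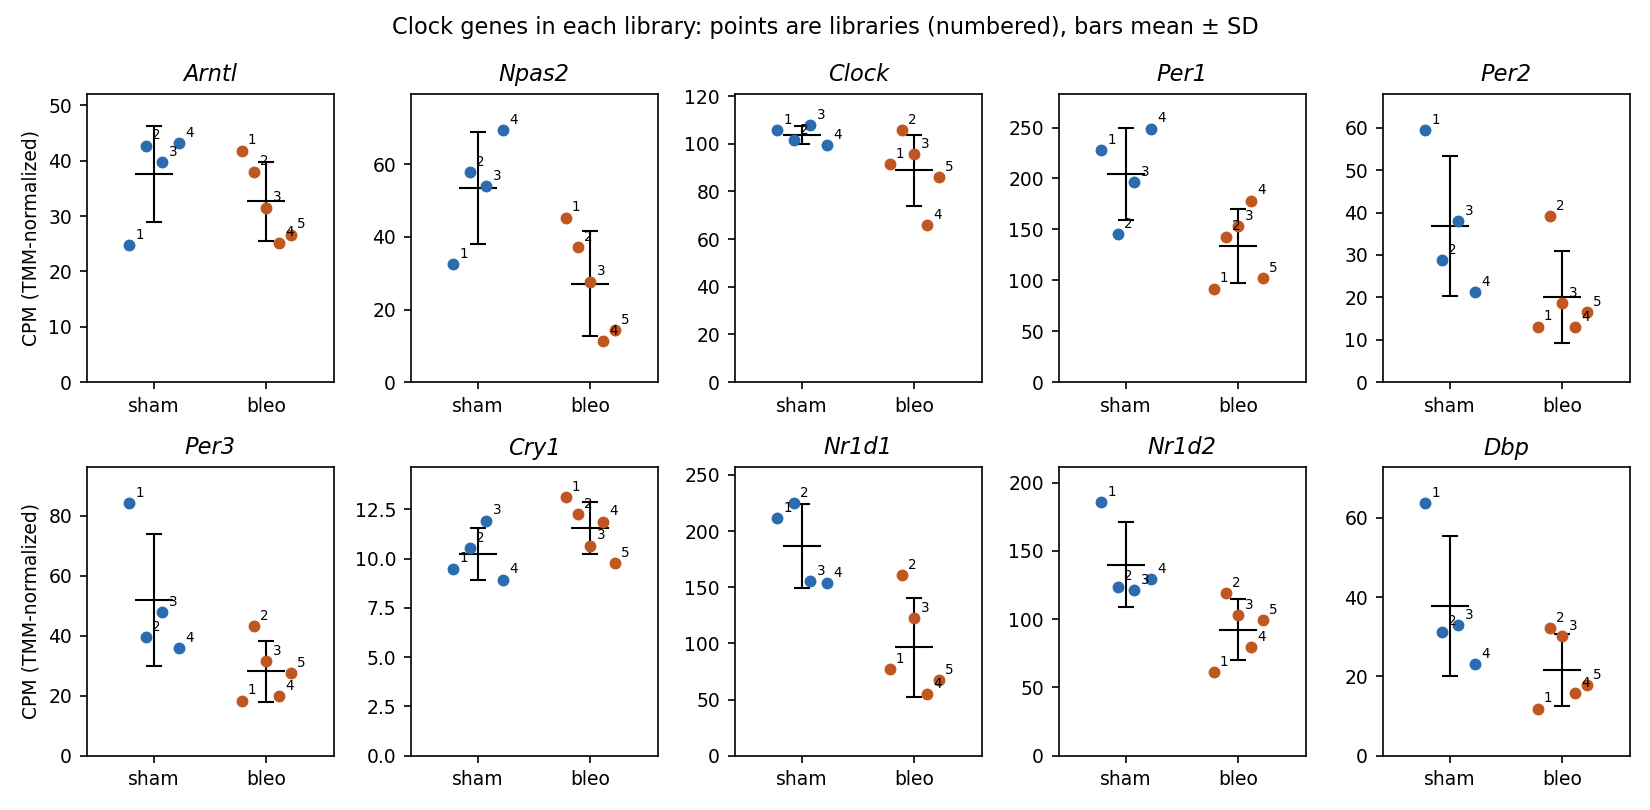
Level of each clock gene in CPM (counts scaled to library size with TMM, linear axis from 0) in the 4 aged sham (blue) and 5 aged bleo (orange) libraries, with each point numbered by library and bars giving the mean ± SD. Nr1d2 is the only panel in which the groups do not overlap, and aged sham 1 is the highest point for Per2, Per3, Nr1d2, and Dbp and the lowest for Arntl.

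The activators of the loop differed among themselves. Arntl (ENSMUSG00000055116, chromosome 7, 113207465 to 113314122) was at 24.8, 42.7, 39.8, and 43.2 CPM in aged sham 1 to 4 and at 41.8, 38.0, 31.5, 25.2, and 26.7 CPM in aged bleo 1 to 5. The groups overlapped fully, and aged sham 1 held the lowest value of all 9 libraries. The means were 37.6 ± 8.68 CPM (SD, n = 4) and 32.6 ± 7.17 CPM (SD, n = 5), with a log2 fold change of -0.21 (standard error 0.20, 95% interval -0.66 to 0.24, FDR 0.454). This interval reaches past a 1.5-fold decrease, so a decrease of that size in Arntl is not excluded.

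Npas2 (ENSMUSG00000026077, chromosome 1, 39193731 to 39363236), which can take the place of CLOCK as the partner of BMAL1, was at 32.4, 57.8, 53.9, and 69.3 CPM in aged sham 1 to 4. In aged bleo 1 to 5 it was at 45.3, 37.3, 27.6, 11.3, and 14.3 CPM. Aged bleo 4 and aged bleo 5 were lowest, 3 of 5 aged bleo libraries lay below all aged sham libraries, and aged bleo 1 and aged bleo 2 lay above aged sham 1. Npas2 fell from 53.4 ± 15.4 CPM (SD, n = 4) to 27.2 ± 14.6 CPM (SD, n = 5), a log2 fold change of -0.98 (standard error 0.40, FDR 0.0877). The call was lost without any one of aged sham 2, 3, or 4 or aged bleo 3, 4, or 5 (FDR 0.161, 0.146, 0.196, 0.135, 0.110, and 0.162), and the FDR ran from 0.0333 to 0.219 over all 21 alternatives. Without both aged sham 4 and aged bleo 4, the libraries with the highest leukocyte marker sums, the log2 fold change was -0.65 with an FDR of 0.219.

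Clock (ENSMUSG00000029238, chromosome 5, 76212177 to 76304548), the constitutive partner of BMAL1, was at 106, 102, 108, and 99.5 CPM in aged sham 1 to 4, the narrowest spread of the 10 genes. It was at 91.4, 106, 95.7, 65.8, and 85.9 CPM in aged bleo 1 to 5, so that 4 of 5 aged bleo libraries lay below all aged sham libraries and aged bleo 2 lay among them. The means were 104 ± 3.83 CPM (SD, n = 4) and 88.9 ± 14.9 CPM (SD, n = 5), with a log2 fold change of -0.22 (standard error 0.12, 95% interval -0.49 to 0.05, FDR 0.182). The interval does not reach a 1.5-fold decrease.

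The PER genes, whose products carry the negative arm of the loop, all had lower means in aged bleo. Per1 (ENSMUSG00000020893, chromosome 11, 69095217 to 69109960), which also responds acutely to cAMP and glucocorticoid signals, was at 228, 145, 197, and 248.9 CPM in aged sham 1 to 4. In aged bleo 1 to 5 it was at 91.8, 143, 153, 178, and 102 CPM. Only aged sham 2 lay among the aged bleo values, and 3 of 5 aged bleo libraries lay below all aged sham libraries. Per1 fell from 205 ± 45.2 CPM (SD, n = 4) to 134 ± 36.0 CPM (SD, n = 5), a log2 fold change of -0.61 (standard error 0.22, FDR 0.0560). The call was lost without aged sham 1, 3, or 4 or aged bleo 5 (FDR 0.124, 0.106, 0.144, and 0.117) and without aged bleo 1, where the log2 fold change of -0.50 was under 1.5-fold. The FDR ran from 0.0222 to 0.144 over all alternatives. Without both aged sham 4 and aged bleo 4, Per1 stayed called (log2 fold change -0.65, FDR 0.0594). The 7 immediate early genes examined, a class of acutely induced transcripts, had the same direction between the groups, since 7 of 7 were called lower and their summed level was 12801 to 16881 CPM in aged sham against 4708 to 10509 CPM in aged bleo. Within the groups the order of libraries differed. Aged sham 4 and aged bleo 4 had the highest Per1 of their groups with the lowest immediate early sums (12801 and 4708 CPM). These libraries also had the highest pan-leukocyte sums. Aged sham 2 had the lowest Per1 of its group with the highest immediate early sum (16881 CPM). The part of the immediate early genes in the change of Per1 was not tested.

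Per2 (ENSMUSG00000055866, chromosome 1, 91415982 to 91459324) was at 59.4, 28.7, 38.0, and 21.3 CPM in aged sham 1 to 4 and at 13.1, 39.1, 18.7, 13.0, and 16.5 CPM in aged bleo 1 to 5. Aged bleo 2 was higher than 3 of the 4 aged sham libraries, and the other 4 aged bleo libraries lay below all of them. The log2 fold change was -0.88 (standard error 0.39, 95% interval -1.75 to -0.0049), and with an FDR of 0.107 Per2 was not called. Without aged sham 1 the log2 fold change was -0.55 with an FDR of 0.306. Without aged bleo 2 it was -1.27 with an FDR of 0.0107, and without aged sham 4 it was -1.07 with an FDR of 0.0777, while the FDR ran from 0.0107 to 0.306 over all alternatives.

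Per3 (ENSMUSG00000028957, chromosome 4, 151003652 to 151044665) was at 84.2, 39.6, 47.9, and 35.8 CPM in aged sham 1 to 4 and at 18.3, 43.2, 31.5, 19.9, and 27.5 CPM in aged bleo 1 to 5. As for Per2, aged bleo 2 lay among the aged sham values and the other 4 aged bleo libraries lay below them, and aged sham 1 was the highest library. Per3 fell from 51.9 ± 22.1 CPM (SD, n = 4) to 28.1 ± 10.0 CPM (SD, n = 5), a log2 fold change of -0.89 (standard error 0.31, FDR 0.0521). Without aged sham 1 the log2 fold change was -0.55 and the call was lost (FDR 0.156), which is also the highest FDR over all alternatives, the lowest being 0.0147.

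Cry1 (ENSMUSG00000020038, chromosome 10, 85131702 to 85185054) encodes a strong repressor of the BMAL1 pair and was the only one of the 10 genes with a higher mean in aged bleo. It was at 9.50, 10.6, 11.9, and 8.93 CPM in aged sham 1 to 4 and at 13.1, 12.3, 10.7, 11.9, and 9.80 CPM in aged bleo 1 to 5. Aged bleo 1 and aged bleo 2 lay above all aged sham libraries, and the others overlapped with them. The log2 fold change was 0.17 (standard error 0.12, 95% interval -0.09 to 0.44, FDR 0.282), an interval that holds no 1.5-fold change in either direction.

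Both REV-ERB genes fell. Nr1d1 (ENSMUSG00000020889, chromosome 11, 98767932 to 98775333) was at 212, 225, 156, and 153 CPM in aged sham 1 to 4 and at 76.9, 161, 122, 54.5, and 67.3 CPM in aged bleo 1 to 5. Aged bleo 2 was the single aged bleo library among the aged sham values, and aged bleo 4 was lowest. Nr1d1 fell from 186 ± 37.3 CPM (SD, n = 4) to 96.4 ± 44.2 CPM (SD, n = 5), a log2 fold change of -0.95 (standard error 0.31, FDR 0.0383). Nr1d1 stayed called without any one library, with FDR values from 0.00654 to 0.0979, and without both aged sham 4 and aged bleo 4 (log2 fold change -0.91, FDR 0.0576). Nr1d1 shares 263 exonic bases, 8.55% of its own, with Thra on the opposite strand, and reads from these bases cannot be told apart without strand. Thra itself had a log2 fold change of -0.49 (standard error 0.19, FDR 0.0721) and was not called.

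Nr1d2 (ENSMUSG00000021775, chromosome 14, 18204054 to 18239127) was at 186, 124, 121, and 129 CPM in aged sham 1 to 4 and at 61.0, 119, 103, 79.7, and 99.2 CPM in aged bleo 1 to 5. Every aged bleo library lay below every aged sham library, although aged bleo 2 and aged sham 3 were close. Nr1d2 was the 1 gene of 10 with no overlap between the groups, where 16.1% of all genes tested lay wholly lower in aged bleo. It fell from 140.0 ± 30.8 CPM (SD, n = 4) to 92.3 ± 22.4 CPM (SD, n = 5), a log2 fold change of -0.60 (standard error 0.20, FDR 0.0441) that is just past 1.5-fold. The call was lost without aged sham 1 (log2 fold change -0.43, FDR 0.122), aged bleo 1 (-0.48, FDR 0.0631), or aged bleo 4 (-0.56, FDR 0.0719), and the FDR ran from 0.0141 to 0.131 over all alternatives.

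Dbp (ENSMUSG00000059824, chromosome 7, 45705088 to 45710155), the output factor that binds D-boxes, was at 63.6, 31.3, 33.0, and 23.2 CPM in aged sham 1 to 4. In aged bleo 1 to 5 it was at 11.9, 32.1, 30.2, 15.7, and 17.8 CPM. Aged bleo 1, aged bleo 4, and aged bleo 5 lay below all aged sham libraries, and aged bleo 2 and aged bleo 3 lay among them. The log2 fold change was -0.81 (standard error 0.36, 95% interval -1.62 to 0.0020), and with an FDR of 0.109 Dbp was not called. Without aged sham 1 the log2 fold change was -0.44 with an FDR of 0.340. Without aged sham 4, aged bleo 2, or aged bleo 3 Dbp passed both thresholds (FDR 0.0817, 0.0583, and 0.0889), and the FDR ran from 0.0559 to 0.340 over all alternatives. Dbp shares 539 exonic bases, 18.0% of its own, with Sphk2 on the opposite strand, whose mean level was 35.9 CPM in aged sham against 29.3 CPM in aged bleo. Of the other clock genes, Arntl shares 33 exonic bases with the antisense gene Gm45355, which is not in the table. The span of Per3 overlaps that of Camta1 on the same strand with no shared exonic base (Camta1 at 9.282 and 6.999 CPM). Npas2 overlaps Gm20428 and Gm3617 in span, and Clock overlaps Ube2n-ps1 and Gm43658, again with no shared exonic base.

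**Figure D2:**
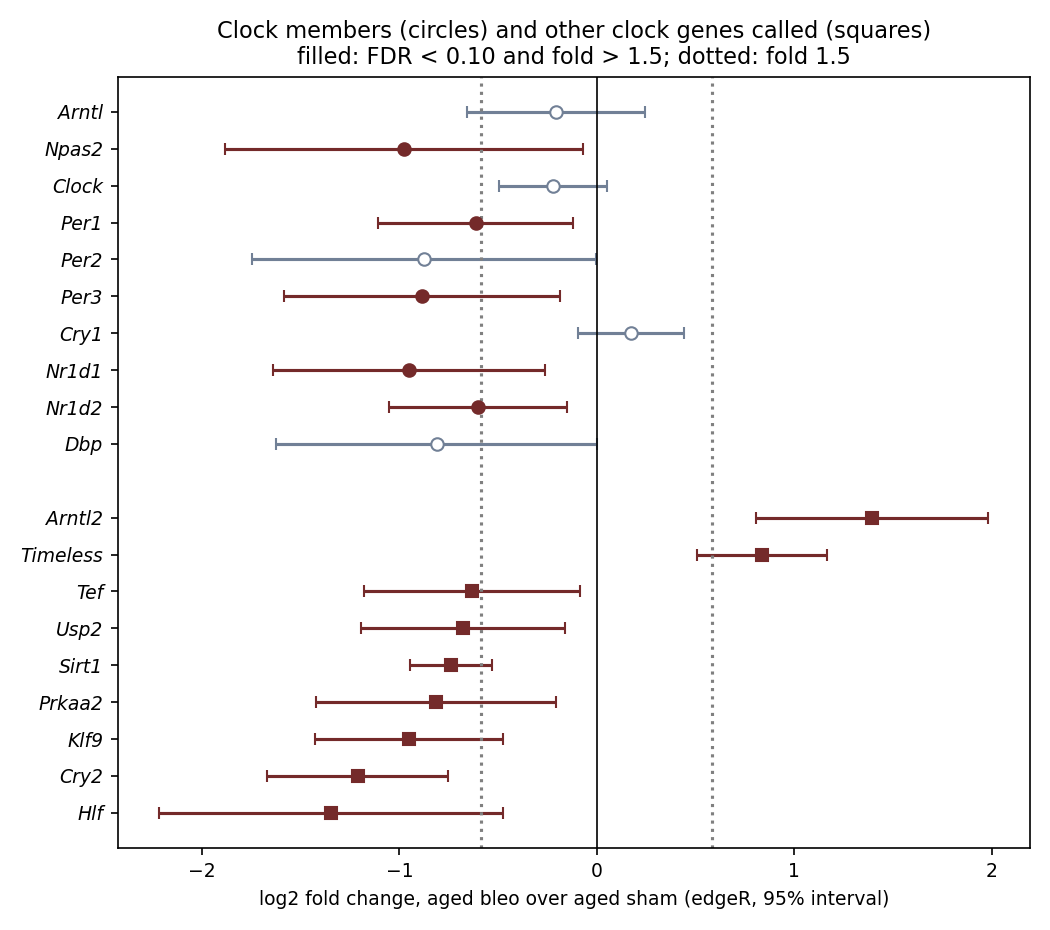
Log2 fold change of aged bleo over aged sham with its 95% interval from edgeR, for the 10 clock genes (circles) and the 9 other clock genes called (squares), where filled red symbols were called and dotted lines mark a 1.5-fold change. Npas2, Per1, Per3, Nr1d1, and Nr1d2 are filled to the left of 0, the intervals of Per2 and Dbp end near 0, and among the squares only Arntl2 and Timeless lie to the right.

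Other genes of the clock were read from 5 lists that hold 31 genes, of which Rorb fell under the count filter and 30 were tested. Of these, 9 were called, 2 higher and 7 lower in aged bleo, beside 23.8% called among all genes tested, and the median log2 fold change was -0.22. Their number ranged from 6 without aged sham 3 to 11 without aged bleo 2. Among the 7 tested transcription factors and repressors of the loop, 1 was called lower and 1 higher. Cry2, the second cryptochrome, fell from 58.7 ± 5.99 CPM (SD, n = 4) to 25.3 ± 7.67 CPM (SD, n = 5), with libraries at 50.5 to 64.0 CPM in aged sham against 16.5 to 36.7 CPM in aged bleo that did not overlap (log2 fold change -1.21, standard error 0.20, FDR 0.00265). Arntl2, a paralog of Arntl, rose from 0.358 ± 0.0427 CPM to 0.944 ± 0.286 CPM (log2 fold change 1.39, standard error 0.26, FDR 0.00452), although both levels were low. Bhlhe40, Bhlhe41, Rora, and Ciart were not called, with log2 fold changes of 0.28, -0.07, -0.31, and -0.24 and FDR values of 0.245, 0.811, 0.120, and 0.641. Rora encodes an activator at the ROR elements that the REV-ERB proteins repress, and its 95% interval ran from -0.64 to 0.01.

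Dbp has a pair of close relatives, Tef and Hlf, which bind the same D-boxes, and both fell. Tef fell from 122 ± 42.6 CPM (SD, n = 4) to 78.7 ± 18.8 CPM (SD, n = 5) (log2 fold change -0.63, standard error 0.24, FDR 0.0695). Hlf was at 39.6 to 79.5 CPM in aged sham against 8.69 to 36.9 CPM in aged bleo with no overlap (log2 fold change -1.35, standard error 0.39, FDR 0.0254). Nfil3, which competes with them as a repressor, was not called (log2 fold change -0.29, standard error 0.13, FDR 0.109). Of the 8 kinases and ubiquitin ligase parts that act on the PER and CRY proteins, 0 were called at both thresholds by edgeR, and 5 had an FDR under 0.10 with smaller folds, beside 44.8% of all genes tested.

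Of the 8 cofactors and metabolic sensors, 1 rose and 2 fell. Timeless, which also has a role at the replication fork, rose from 4.98 ± 0.251 CPM to 8.89 ± 1.69 CPM (log2 fold change 0.84, standard error 0.15, FDR 0.00325). All 5 cell cycle genes examined were called higher as well, at 7.52 to 51.5 CPM in sum in aged sham and 32.1 to 248 CPM in aged bleo. Their part in the change of Timeless was not tested. Sirt1, a deacetylase that binds the BMAL1 pair, fell from 51.0 ± 2.77 CPM to 30.6 ± 3.80 CPM (log2 fold change -0.74, standard error 0.09, FDR 6.30e-04). Prkaa2, a catalytic subunit of AMPK, fell from 23.5 ± 3.86 CPM to 13.4 ± 4.57 CPM (log2 fold change -0.81, standard error 0.27, FDR 0.0428). Of the 4 output genes, Usp2 and Klf9 fell, with log2 fold changes of -0.68 (standard error 0.23, FDR 0.0458) and -0.95 (standard error 0.21, FDR 0.00904). Klf9 did not overlap between the groups (165 to 212 CPM against 63.2 to 135 CPM). The groups also did not overlap for Arntl2, Timeless, Sirt1, and Prkaa2, and for some list genes that were not called, in both directions. Of all genes tested, 16.1% lay wholly lower and 16.1% wholly higher in aged bleo.

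Most of the clock genes varied more among mice of the same treatment than most genes of their abundance. Over 8745 genes with mean levels in the same range, 11.0 to 165 CPM, the median coefficient of variation was 7.32% in aged sham and 12.0% in aged bleo. In aged sham it was 47.0% for Dbp, 44.8% for Per2, and 42.7% for Per3, but 3.69% for Clock. The 8 clock genes other than Clock and Cry1 stood at or above the 90.9 percentile of those genes in aged sham and at or above the 79.7 percentile in aged bleo. Clock stood at the 13.7 and 68.3 percentiles and Cry1 at the 80.1 and 46.7 percentiles.

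Several clock genes varied together within the groups. After the group means were removed from the log2 CPM values, 6 targets of the loop were taken as a set, Per1, Per2, Per3, Nr1d1, Nr1d2, and Dbp. They had a median Pearson's r of 0.72 over their 15 pairs across the 9 libraries, and 14 of 15 pairs were positive. The highest values were those of Per3 with Dbp (0.953), Per2 with Per3 (0.949), and Per3 with Nr1d2 (0.911), whereas Per1 with Nr1d1 gave -0.019. Cry1, also an E-box target, was left out of this set and did not vary with it. Its r was -0.249 with Per1, 0.116 with Per2, -0.170 with Per3, 0.062 with Nr1d1, -0.493 with Nr1d2, and -0.162 with Dbp. Among the activators, Arntl and Npas2 gave 0.913. Between the 6 targets and Arntl, Npas2, and Clock, 10 of 18 pairs were negative with a median of -0.14, and this median turned positive without aged sham 1 (0.23) or aged bleo 1 (0.156). With Nr1d1, r was 0.806 for Clock and 0.262 for Arntl, and with Nr1d2 it was 0.379 for Clock and -0.507 for Arntl. These values share the depth and scaling of the same 9 libraries and are given as a description. No median over pairs of other genes was computed to set beside 0.72. Among 10004 other genes with a mean of at least 10 CPM, Tef ranked 1822 in its r with Nr1d1, at 0.707. An r near 0.7 with Nr1d1 was therefore common in these libraries and not particular to clock genes.

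**Figure D3:**
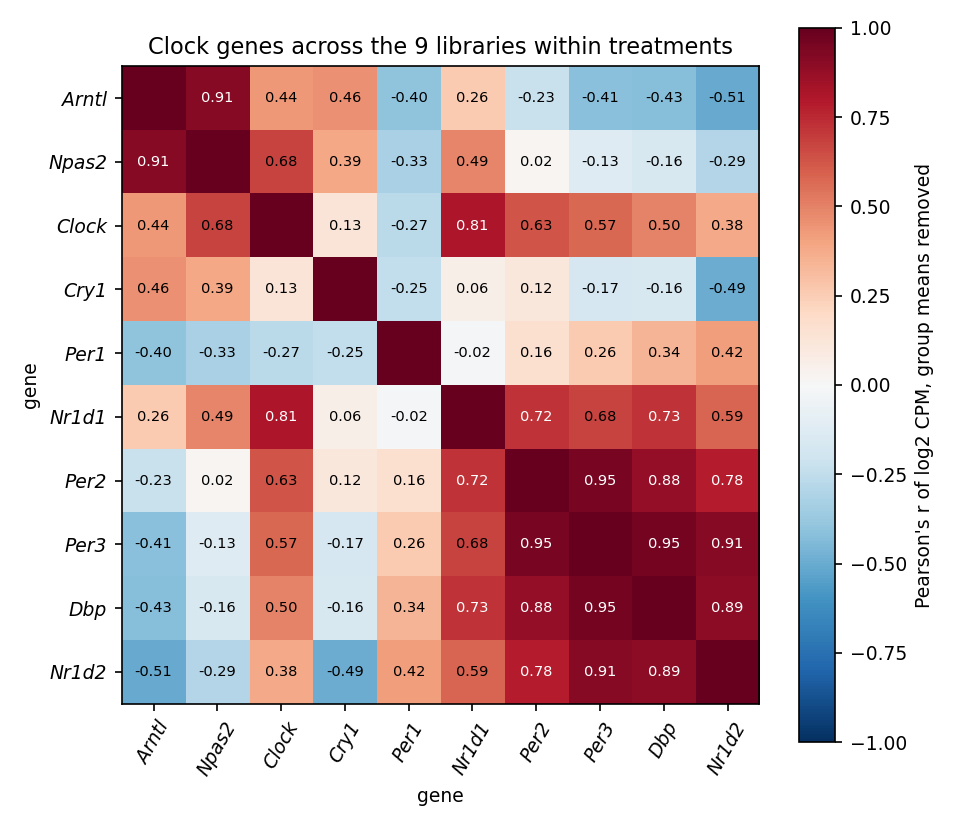
Pearson's r between the clock genes over the 9 libraries, computed on log2 CPM after the mean of each group was removed, with red for positive and blue for negative values and the diagonal set to 1. Per2, Per3, Dbp, and Nr1d2 form the dark red corner, and Arntl and Npas2 the pair at the other end.

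By library, aged sham 1 stood at the top for Per2, Per3, Nr1d2, and Dbp and at the bottom for Arntl, while aged sham 4 was highest for Arntl, Npas2, and Per1. On the log2 scale and relative to the aged sham mean, aged sham 1 was at 0.79 for Per2, 0.78 for Per3, and 0.86 for Dbp and at -0.57 for Arntl and -0.67 for Npas2. Among the aged bleo libraries, aged bleo 2 lay closest to the aged sham level, with 2 of the 10 genes below all aged sham libraries. In aged bleo 1, 3, 4, and 5 these were 7, 6, 7, and 8 genes. The share of all genes tested that lay below all aged sham libraries was not computed for each library. These counts are therefore a description and are not shown to be particular to clock genes. Aged bleo 1 was lowest of all 9 libraries for Per1, Per3, Nr1d2, and Dbp and kept Arntl at 0.19 above the aged sham mean, and aged bleo 4 was lowest for Npas2, Clock, Per2, and Nr1d1 with Arntl at -0.54. Whether these mice differed in clock phase was not tested.

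Ratios within a library do not depend on its scaling, and 8 were computed between clock genes as CPM per kilobase of the length given in the table. In 2 of the 8 the groups did not overlap, and how often ratios of other genes did so was not computed. Of all single genes tested, 16.1% lay wholly lower and 16.1% wholly higher in aged bleo. Cry2 over Cry1 was 3.12, 2.89, 2.33, and 2.69 in aged sham 1 to 4 and 0.969, 1.43, 1.19, 0.662, and 0.991 in aged bleo 1 to 5. Cry2 was thus the more abundant cryptochrome transcript per length in every aged sham library. Several aged bleo ratios lie close to 1, so which cryptochrome was the more abundant there depends on the length used, and the table gives 3014 bases for Cry1 where GENCODE M21 has 3340 exonic bases. Npas2 over Arntl was 0.792, 0.821, 0.821, and 0.972 in aged sham 1 to 4 and 0.656, 0.594, 0.531, 0.273, and 0.324 in aged bleo 1 to 5. Aged sham 1, which was lowest in both genes among the aged sham libraries, was close to aged sham 2 and aged sham 3 in this ratio. Nr1d1 over Arntl, a repressor over its target, was 3.35 to 8.06 in aged sham and 1.74 to 3.99 in aged bleo, and the groups overlapped.

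**Figure D4:**
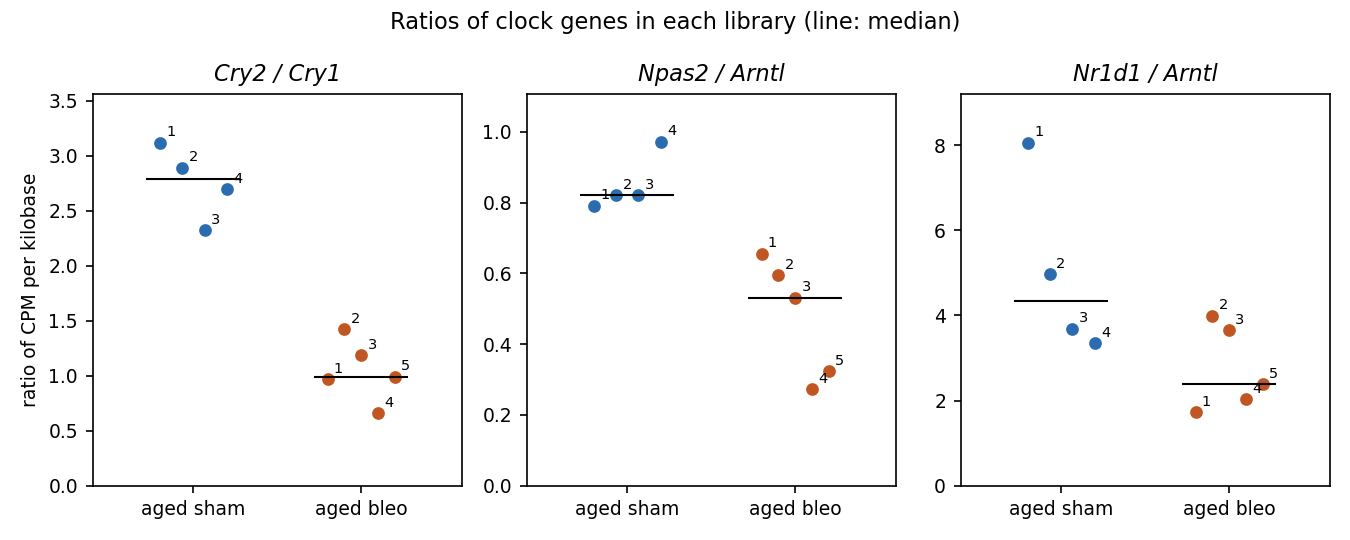
Ratios of CPM per kilobase (linear axes from 0) of Cry2 to Cry1, Npas2 to Arntl, and Nr1d1 to Arntl in each numbered library of aged sham (blue) and aged bleo (orange), with a line at the group median. The groups are apart for Cry2 to Cry1 (at least 2.33 against at most 1.43) and Npas2 to Arntl (at least 0.792 against at most 0.656) and overlap for Nr1d1 to Arntl.

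Per kilobase, Nr1d1 was the most abundant of the 10 genes in aged sham at 60.6 ± 12.1 CPM per kilobase (SD, n = 4), followed by Per1 (36.3), Nr1d2 (27.996), Clock (13.9), Arntl (13.0), Dbp (12.8), Npas2 (11.1), Per2 (6.29), Per3 (5.401), and Cry1 (3.39). Neighbours in this order overlapped in range except Nr1d1 with Per1 and Nr1d2 with Clock. In aged bleo the order was the same down to Npas2, and Cry1 (3.83) then stood above Per2 (3.43) and Per3 (2.92), but all neighbours overlapped. The deposited FPKM values gave the same order in both groups, but they rest on the same counts and lengths and are no separate check. The order depends on the lengths in the table, which for Arntl (2904 bases), Clock (7478 bases), Cry1 (3014 bases), Nr1d2 (5001 bases), and Dbp (2945 bases) are shorter than the exonic bases of GENCODE M21 (7523, 13727, 3340, 5409, and 2993).

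The genes most like Arntl within groups were Rad9b (r = 0.973), Tcta (0.966), Leng9 (0.966), Mfap1b (0.956), and Ankzf1 (0.945), out of 10004 genes with a mean of at least 10 CPM and over 9 libraries. Those most like Nr1d1 were Ppp1r9a (0.968), Dock4 (0.963), Tor1aip1 (0.962), and Sowahc and AC153941.1 (both 0.961), the last 2 of which hold identical counts in all 9 libraries. Of the other clock genes, Cry2 gave 0.912 with Nr1d1 (rank 55 of the 10004 genes). Hlf (rank 267) and Rora (rank 271) both gave 0.864.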

How the data were processed

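Bulk RNA-Seq of sorted lung fibroblasts was analysed for 4 aged sham and 5 aged bleo mice, grouped by their sample labels. The authors deposited the read counts of 43346 genes, whole numbers without normalization, and FPKM values, for which the authors used gene lengths and library totals 2.27 to 2.42 times larger than the summed counts. The submitters' processing notes name bcl2fastq, STAR 2.5.2b, Subread, and featureCounts and the build mm10 (GRCm38), without their roles. The TruSeq v2 poly-A kit does not keep strand. No same-group pair was a duplicate, with chi-square per degree of freedom of 30.9 to 468. Replicates are separate mice as far as the labels say, so p-values measure the spread between these libraries.

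The counts of the 16877 genes with an average of at least 25 were tested with edgeR 4.0.16 (TMM, glmQLFit and glmQLFTest) in R 4.3.3 without covariates, checked on simulated data. The study used a moderated test, which was run with limma 3.58.1 as an alternative, as was DESeq2 1.42.0. Log2 CPM values have a prior count of 2. Intervals of fold changes are at 95%, and limits from counts cover counting error only. The clock genes, the other lists, and the tests were chosen with earlier results of these data known. Genes named besides the 10 clock genes are those called in the other lists with Nfil3, Bhlhe40, Bhlhe41, Rora, and Ciart, genes overlapping a clock gene, and the 5 genes most like Arntl and Nr1d1. Protein alignments planned for the paralogs were not run here. Coordinates are those of the deposited table, where 78.8% of the identifiers shared with GENCODE M21 (GRCm38) had identical positions.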

Additional observations from a re-analysis of the deposited data

Results flagged for a closer look

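In 20 groups of values (10 clock genes in aged sham and in aged bleo), 2 libraries lay far from the others of their group by Dixon's criterion, which chance alone meets in about 1 of 20 groups. Nr1d2 was at 186 CPM in aged sham 1, against 121 to 129 CPM in the other aged sham libraries, a gap of 0.878 of the whole range. Per2 was at 39.1 CPM in aged bleo 2, against 13.0 to 18.7 CPM in the other aged bleo libraries, a gap of 0.781 of the range.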

How the results depend on the processing

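The fold changes of the 10 clock genes kept their direction in all 210 values under the alternatives. The settings that changed only the thresholds reuse the main fold changes, so their direction could not change. In 170 of the 210 values the call was as reported, in 31 it was lost, and in 9 it was gained. The number of clock genes called, 5, was 2 with limma on log2(FPKM + 1), 3 with no filter on low counts, and 0 with an FDR under 0.05 and a fold over 2. It was 7 with DESeq2 and 5 or 6 with limma-trend, log2(FPKM + 0.1), RLE, library size only, at least 10 counts in every library, and FDR under 0.10 alone. With each library left out it ranged from 2 to 7. Nr1d1 was the gene called under every alternative except the stricter thresholds. Over all genes, 4022 were called, with 1785 for log2(FPKM + 1), 2158 for the stricter thresholds, 7553 for FDR under 0.10 alone, and 3525 to 4597 with a library left out. Of the other clock genes, 9 were called, with 3 for log2(FPKM + 1), 3 for the stricter thresholds, 17 for FDR under 0.10 alone, and 6 to 11 with a library left out. The cause of these differences was not tested, apart from the thresholds themselves. The median r of the 6 loop targets in the set without Cry1 with the activators was -0.14. With a library left out it ranged from -0.415 to 0.23 and reversed without aged sham 1 (0.23) and aged bleo 1 (0.156). The median among these 6 targets ranged from 0.484 to 0.785. Leaving out both aged sham 4 and aged bleo 4 was chosen after seeing the data and gave 3596 genes, 4 clock genes, and 9 other clock genes. The median log2 fold change of all genes moved by at most 0.02 with scaling.

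The groups share replicate numbers. Deviations of same-numbered libraries from their group means gave r = 0.0922, 0.0623, -0.130, and 0.326 for replicates 1, 2, 3, and 4. The aged bleo library most like aged sham 4 was aged bleo 4, whereas aged sham 1, 2, and 3 were most like aged bleo 3, 1, and 2. Such values cannot decide whether the numbers pair the mice, and the labels name no pairing. With the replicate block, 3536 genes, 1 clock gene (Nr1d1), and 8 other clock genes were called.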
